A study of Mus musculus with 6 samples.

Results

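The cells described here are classical monocytes of the mouse spleen, picked from single-cell RNA libraries by a rule on raw transcript counts. A barcode was kept as a cell if it held 1000 or more unique molecular identifiers (UMIs, counts of single RNA molecules) over 400 or more genes, with mitochondrial transcripts taking no more than 10%. A kept cell entered the gate with at least 2 UMIs of Csf1r and Ccr2 together, at least 3 of Lyz2, and at least 1 UMI of 2 or more of the 5 markers Ly6c2, Ccr2, Fn1, F13a1 and Vcan. It also had no UMI of Vcam1, Treml4, Flt3, Cd3e or Cd3d and at most 1 of Cd79a. The gate held 255 of 31457 kept cells. The 3 ND libraries gave 51, 29 and 36 cells and the 3 MCDHFD libraries gave 56, 56 and 27, and values are given in this order of replicates throughout.

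The libraries come from whole splenocytes of wild-type C57BL/6 mice that were 6 weeks old at the start and then received ND or MCDHFD for 7 weeks, with 3 libraries per diet. The sample titles of the second group write MCD, and the growth protocol writes MCDHFD, the name used here. The labels call the mice models of MASH, a fatty liver disease with inflammation, and the study as a whole concerns splenic CD8 T cells with high Trnp1 in liver fibrosis. The labels do not say whether a library is 1 mouse or a pool, so p-values measure the spread between these libraries.

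Classical monocytes leave the bone marrow through the chemokine receptor Ccr2, circulate with high surface Ly6C, and can become macrophages, antigen-presenting cells or non-classical monocytes. The spleen holds a reserve of them in its red pulp and can also make them locally from precursors. In the same cells, interferon switches on a broad set of antiviral and antigen presentation genes, and bone marrow output under inflammation can add cells that carry transcripts of neutrophil granules.

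Gated cells were deep, with a median of 10250 to 15267 UMIs per library, and their summed UMIs ran from 267716 to 1028312. ND replicate 2 and MCDHFD replicate 3 stood apart: their barcode lists were deposited already filtered, their headers name another Cell Ranger version, and their kept cells had a median of 0.571% and 1.68% mitochondrial UMIs against 3.73% to 3.96% in the other 4. The form of the list was therefore a term of the fits, and results without these libraries are given. No barcode of a gated cell was shared between libraries. Counts of MCDHFD replicates 1 and 2 in the gated cells differed by a chi-square of 2.61 per degree of freedom, above the sampling noise of 1 but the closest pair, so a fit with them summed was added. Doublet prediction marked 3 gated cells (0, 0 and 1 in ND, 2, 0 and 0 in MCDHFD), which were kept. Among all kept cells it marked 0 in ND replicate 2 and in MCDHFD replicate 3, and 56 to 241 in each of the other 4 libraries. For ND replicate 2 and MCDHFD replicate 3 the prediction thus cannot show that the gated cells hold no doublets.

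The genes of the rule are described without a test. Ly6c2, which encodes part of the Ly6C surface antigen, was at 1730, 3080 and 1910 UMIs per 1000000 (counts on this scale are called CPM) in ND and 1280, 1150 and 878 in MCDHFD. Vcan, a matrix proteoglycan typical of classical monocytes, was at 50.6, 84.3 and 111 CPM in ND and 540, 969 and 530 in MCDHFD. Neither gene overlapped between the diets, and they lay in opposite directions. Fn1, fibronectin, was at 947 ± 340 CPM in ND and 1830 ± 206 in MCDHFD (mean ± SD, n = 3 each). Ccr2 was at 739 ± 163 and 892 ± 149, F13a1, a coagulation factor subunit, at 979 ± 313 and 1230 ± 376, Csf1r at 396 ± 132 and 347 ± 78.5, and Lyz2, lysozyme, at 17900 ± 6490 and 14800 ± 491. Cd79a was at 0 to 12 CPM, and the other 5 excluded genes were at 0 in all 6 libraries by construction.

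The number of markers per cell is also described without a test, since the markers belong to the rule and cells are pooled over the libraries of a diet. Of the 130 cells with all 5 markers, 34 came from ND and 96 from MCDHFD. The 83 cells with 4 markers were 59 and 24, the 28 with 3 were 17 and 11, and the 14 with 2, just inside the rule, were 6 and 8. Those 14 cells had a median of 9419.5 UMIs, Lyz2 at 10900 CPM and Cd74 at 9750 CPM. The 41 cells with 1 marker, just outside, had a median of 5643 UMIs, Lyz2 at 6220 and Cd74 at 6900. Median UMIs were 13205.5 in the cells with all 5 markers and 11473 in those with 4. The part of depth in the marker count was not tested.

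Beyond the rule, genes high in the gate relative to all other kept cells included genes of monocytes and of myeloid precursors. Lgals3, galectin-3, averaged 1720 CPM against 104 in the other cells, S100a4 2200 against 142, Ifitm3, an interferon-induced membrane protein, 3200 against 211, and Ccl9, a chemokine, 345 against 14.6. Fcgr1, the high-affinity IgG receptor, averaged 59.7 against 3.57. The primary granule proteases Prtn3 and Ctsg averaged 832 against 53.9 and 423 against 22.3. Markers of lymphocytes were low. The 12 B cell markers summed to 220 to 407 CPM in ND and 74.7 to 297 in MCDHFD, and the 12 T cell markers to 5.11 to 13.9 and 7.47 to 29.3, with Trac and Cd4 at 0. For neutrophils the 12 markers summed to 285 to 1530 CPM in ND and 1120 to 7060 in MCDHFD. The highest MCDHFD library exceeded the 5090 to 6380 CPM of the 5 markers of the rule in that diet. Retnlg, a gene of mature neutrophils, stayed at 0 to 6.81 CPM. Csf3r, another neutrophil gene, was at 84.6, 107 and 127 CPM in ND and 114, 106 and 67.2 in MCDHFD. The part of neutrophil RNA in the gate was not tested. Red pulp macrophage markers summed to 43.8 to 120 and 129 to 387. Trnp1, the gene of the study's title, and Syt6 and Ston1 had no UMI in any gated cell, which allows a level of up to 0.788 CPM over all 6 libraries.

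The share of the whole gate did not differ beyond the spread between libraries. Classical monocytes made up 0.781%, 0.886% and 0.727% of kept cells in ND and 0.848%, 0.853% and 0.766% in MCDHFD. The diets overlapped, with means of 0.798% ± 0.0809 and 0.822% ± 0.049 (SD, n = 3 each; two-sided exact permutation p = 0.7, where 3 against 3 cannot go below 0.1). Without the granule and MHC class II rich cells described below, the share was 0.52%, 0.672% and 0.626% in ND and 0.787%, 0.777% and 0.766% in MCDHFD, with no overlap (exact permutation p = 0.1, the smallest possible). With kept cells thinned to 2000 UMIs before the gate, the means were 0.791% and 1.21%, with overlap (exact permutation p = 0.4). The thinned gate held 316 cells against 255, with 80 and 102 in MCDHFD replicates 1 and 2. Thinning also removes UMIs of the excluded genes, so cells that the rule left out can enter. Treml4-positive non-classical monocytes, which patrol vessels and derive from classical ones, made up 1.14% ± 0.178 of ND cells and 2.17% ± 1.36 of MCDHFD cells. The log2 ratio of classical to non-classical cells was -0.506 ± 0.251 in ND and -1.12 ± 1.13 in MCDHFD (SD, n = 3 each; exact permutation p = 0.4). MCDHFD replicates 1 and 2, at -1.54 and -1.97, lay below every ND library, and replicate 3, at 0.17, lay above all.

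The gate was not uniform. It held small numbers of 2 kinds of cells apart from the rest, and both cuts below were made after the data were seen. In 19 cells the primary granule genes Mpo, Elane, Prtn3 and Ctsg, made in myeloid precursors, summed to at least 20 UMIs. These cells were large, with median UMIs of 29596 to 46026.5 in the 5 libraries that had any. They held 44 UMIs of Kit and 32 of Cd34, genes of precursors, and the 217 remaining cells held none of either. In another 19 cells the MHC class II genes Cd74, H2-Aa, H2-Ab1 and H2-Eb1 took at least 1% of UMIs. Cd209a, a lectin of a dendritic-like monocyte state, was at 250 CPM there over all libraries pooled and at 3.35 CPM in the remaining cells. By library it was uneven in the MHC class II rich cells, at 260, 210 and 0 CPM in ND. It was at 1670 CPM in the 1 such cell of MCDHFD replicate 1 and at 95.3 in MCDHFD replicate 2. The proliferation genes Mki67 and Top2a had no UMI in the MHC class II rich cells and stood at 339 and 480 CPM in the granule cells. No cell met both cuts, and 9 cells lay within a factor of 2 of the granule cut and 11 of the MHC class II cut.

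**Figure D1:**
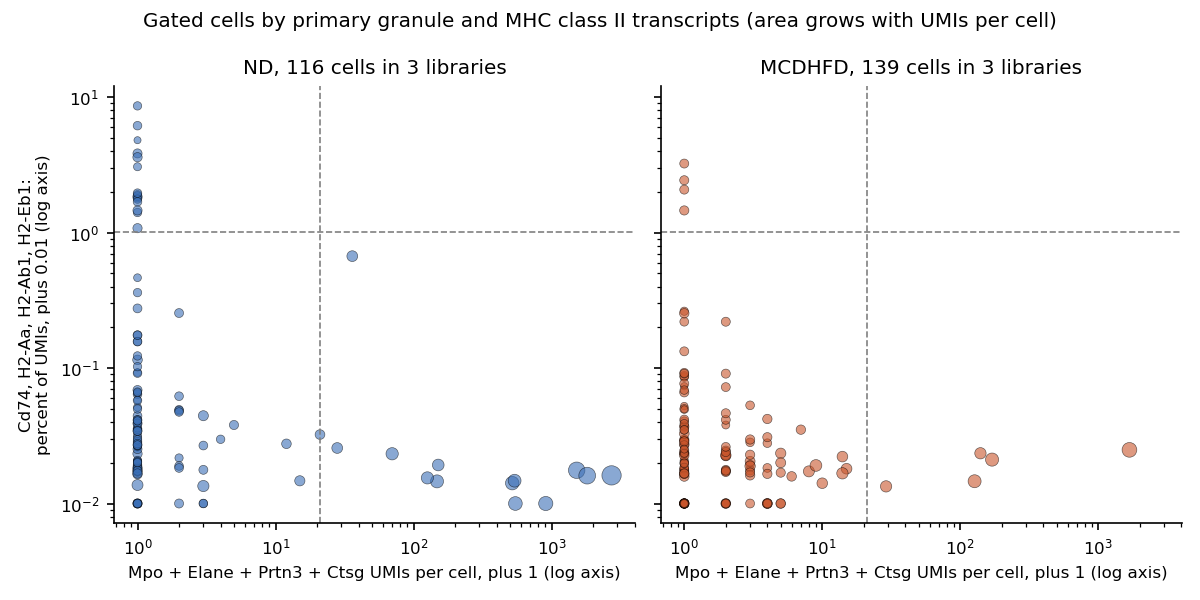
Each point is 1 gated cell, placed by its summed UMIs of Mpo, Elane, Prtn3 and Ctsg (plus 1, log axis) and by the percent of its UMIs from Cd74, H2-Aa, H2-Ab1 and H2-Eb1 (plus 0.01, log axis), with ND on the left and MCDHFD on the right. Dashed lines mark 20 UMIs and 1%, and in both diets the cells form an L, with the granule cells at the lower right and the MHC class II rich cells at the upper left.

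Both kinds were unevenly spread. Granule cells numbered 10, 3 and 1 in ND and 3, 2 and 0 in MCDHFD, and because of their size they brought 53% of all gated UMIs in ND replicate 1. MHC class II rich cells numbered 7, 4 and 4 in ND and 1, 3 and 0 in MCDHFD. After every gated cell was thinned to 1000 UMIs, cells with at least 2 UMIs of the 4 MHC class II genes made up 19.6%, 31% and 13.9% in ND and 7.14%, 12.5% and 0% in MCDHFD. The diets did not overlap, at means of 21.5% ± 8.73 and 6.55% ± 6.27 (SD, n = 3 each; two-sided exact permutation p = 0.1, the smallest the design allows, and 0.25 adjusted over 5 states). Without thinning the means were 65.5% and 44.9%.

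Summed over all gated cells, Cd74, the class II invariant chain, was at 1060, 2740 and 1270 CPM in ND and 368, 554 and 131 in MCDHFD. H2-Aa was at 458, 1090 and 327 against 176, 197 and 3.74. Every ND library lay above every MCDHFD library for both genes, but neither passed the test across genes (edgeR, adjusted p = 0.169 and 0.422). B cell RNA carries these genes too. If all Ighm in the gate had come from B cells of the same library, it would bring 386, 1250 and 323 CPM of Cd74 in ND and 119, 89 and 279 in MCDHFD. In ND that is less than the measured level in each library, and in MCDHFD replicate 3 it is more.

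Over all 255 cells, 18 of 6474 genes outside the rule differed between the diets, which is 0.278% of those tested (edgeR quasi-likelihood test with list form and diet, adjusted p under 0.05). Of these, 16 rose with MCDHFD (0.247%) and 2 fell (0.0309%). Among the 16 were Pla2g7, Mmp8, C5ar1, Clec4e, Chil3, Lcn2, Fpr2, S100a8, Shtn1, Ear2, Tarm1, Ctdspl, Dpep2 and Cd93, and the 2 were Ifi205 and Ifi206. The count rests on single libraries: it was 0 without ND replicate 2, without MCDHFD replicate 2 or without MCDHFD replicate 3 (345, 273 and 329 genes at an unadjusted p under 0.05) and 1078 without ND replicate 3. With DESeq2 it was 50, and with diet alone it was 8 in edgeR (0.124%), 7 higher (0.108%) and 1 lower (0.0154%). As a plain description of the levels, 754 of the 6474 genes (11.6%) had diets that did not overlap, 427 higher (6.6%) and 327 lower (5.05%) with MCDHFD.

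Without the granule and MHC class II rich cells, in a fit added after the data were seen, edgeR called 172 of 4872 genes (3.53%), 77 higher with MCDHFD (1.58%) and 95 lower (1.95%). The 4 granule and 4 class II genes that chose the cells were not tested. All 18 genes of the fit over 255 cells were among the 172. The common dispersion, the squared variation between libraries, was 0.0628 with all cells and 0.0187 with the remaining 217. Leaving out each library in turn gave 63 to 258 calls, the fewest without MCDHFD replicate 2, and 48 genes were called in each of those 6 fits, 27 higher and 21 lower. Of those 6, the fits without ND replicate 2 and without MCDHFD replicate 3 share the same 4 libraries for the diet term. The 4 libraries with unfiltered lists alone gave 72 calls, of which 62 were among the 172. The values by gene that follow are from the remaining 217 cells unless another set is named, at 34, 22 and 31 cells in ND and 52, 51 and 27 in MCDHFD. For counts of list members in these cells, the shares over all 4872 genes are 1.58% higher and 1.95% lower.

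The genes that rose included secreted and granule proteins better known from neutrophils. Chil3, a chitinase-like lectin also called Ym1, was at 655, 443 and 397 CPM in ND and 1520, 2880 and 4420 in MCDHFD, and the diets did not overlap (log2 difference 2.46 ± 0.26 SE, edgeR adjusted p = 2.35e-05). With every gated cell thinned to 1000 UMIs, Chil3 was found in 21.6%, 20.7% and 22.2% of ND cells and 64.3%, 67.9% and 85.2% of MCDHFD cells. The same share in B cells, which should lack it, was 0% to 0.4% at that depth. These B cells were chosen to hold no UMI of Lyz2, Csf1r or Ccr2. Cells with stray myeloid RNA were thus partly left out, and their share may be too low as a background. The same B cells are used for S100a8 and Ifi27l2a below. Lcn2, lipocalin-2, which binds bacterial iron chelators, was at 17.6, 44.7 and 5.67 CPM against 144, 357 and 758, so the lowest MCDHFD library lay above the highest ND library (log2 4.25 ± 0.38, edgeR adjusted p = 7.65e-06). Mmp8, a collagenase of neutrophil granules, was at 55.2, 56.9 and 45.4 against 184, 301 and 332 (log2 2.35 ± 0.25).

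S100a8, one chain of the calcium-binding dimer calprotectin, was at 103, 703 and 51.1 CPM in ND and 455, 1010 and 3910 in MCDHFD. ND replicate 2 lay above MCDHFD replicate 1, so the diets overlapped. Within the unfiltered lists and within the filtered ones MCDHFD was higher, and the fit with list form gave log2 2.91 ± 0.27 (edgeR adjusted p = 7.65e-06). Its partner S100a9 rose by 1.16 ± 0.22, again with overlap. These levels rest on few cells. The 2 cells richest in S100a8 held 88.9% of its UMIs in MCDHFD replicate 3, 77.7% and 38% in MCDHFD replicates 1 and 2, and 98.3% in ND replicate 2, and the 2 richest in S100a9 held 97.7% of its UMIs in MCDHFD replicate 3 and 99.7% in ND replicate 2. With every gated cell thinned to 1000 UMIs, S100a8 was found in 9.8%, 10.3% and 0% of ND cells and 14.3%, 28.6% and 18.5% of MCDHFD cells, against 1.5% to 9.3% and 2.5% to 4.2% of B cells. Chil3 was spread more evenly, with 10.2% to 23.9% of its UMIs in the top 2 cells of each MCDHFD library, and for Lcn2 the share was 40.1% to 52.8%.

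Barcodes under 100 UMIs, which hold free RNA, had S100a8 at 11800 and 2670 CPM in ND replicates 1 and 3 and at 3550 and 3730 in MCDHFD replicates 1 and 2. Neutrophils held S100a8 at 107000 to 113000 CPM in ND and 56900 to 91000 in MCDHFD. The filtered lists of ND replicate 2 and MCDHFD replicate 3 hold no such barcodes, so their free RNA was not measured, and ND replicate 3 lay below both measured MCDHFD libraries.

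Of the 10 tested genes of the neutrophil granule list, 7 rose and none fell (median log2 1.76, against 0.01 over all 4872 genes). The others that rose were Wfdc21, a whey acidic protein domain gene at 0 to 12.6 CPM in ND and 32.3 to 448 in MCDHFD, and Hp, haptoglobin, at 556 to 675 and 814 to 1170. All of the 7 but Hp, which held in 3 of 6, were called in each leave-one-out fit. Over all 255 cells, 4 of 14 tested members rose and none fell. A member could pass the filter on low counts through the MCDHFD libraries alone. In the remaining cells with no such filter, 18 members were tested, 7 rose and none fell, and the median was log2 0.52. All but Il1r2 of the 12 neutrophil markers whose sum is given above are members of this list too, and the part of neutrophil RNA in these differences was not tested.

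**Figure D2:**
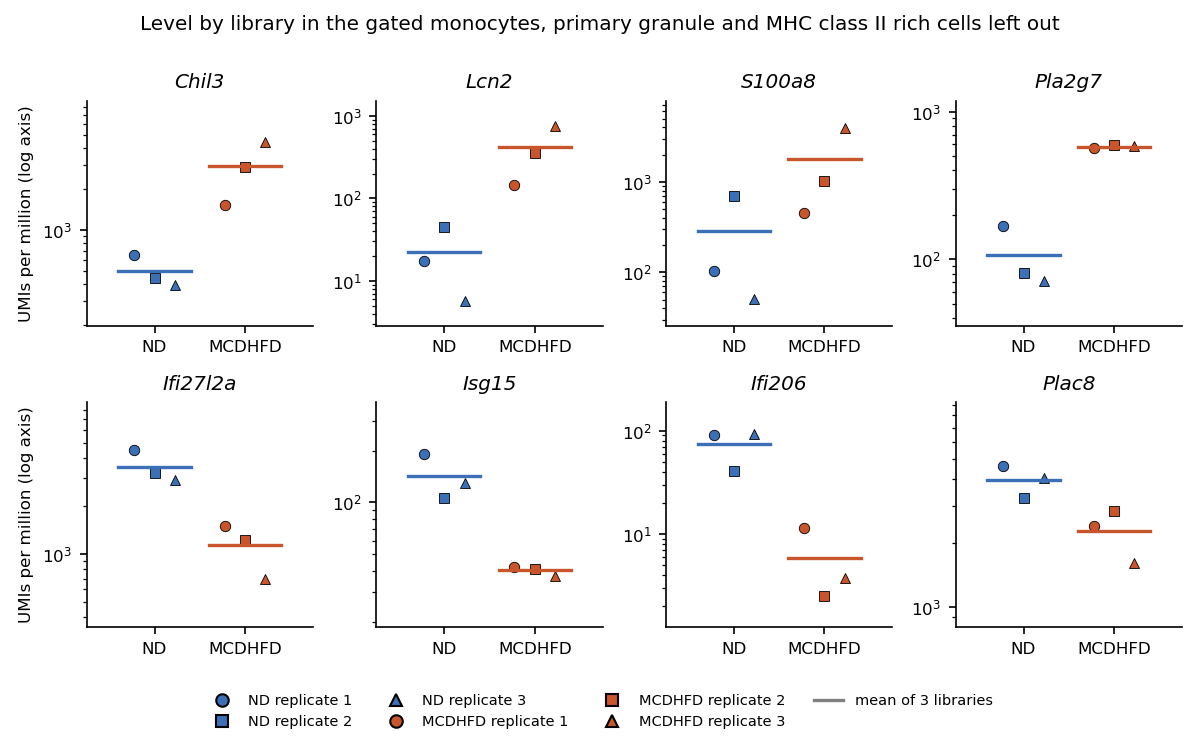
Levels of 8 genes in the 217 gated cells left after the granule and MHC class II rich cells, in CPM on log axes, with 1 symbol per library and a bar at the mean of 3. Chil3, Lcn2 and Pla2g7 are higher in every MCDHFD library, S100a8 overlaps through ND replicate 2, and Ifi27l2a, Isg15, Ifi206 and Plac8 are lower in every MCDHFD library.

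Of 21 tested pattern recognition genes 2 rose and 1 fell, with a median log2 of 0.12, and of 17 tested chemokine and homing receptors 2 rose and 1 fell. Over all genes tested, 1.58% rose and 1.95% fell. C5ar1, the receptor of complement fragment C5a, was at 2.51, 4.07 and 5.67 CPM in ND and 37.1, 73.3 and 101 in MCDHFD, and the groups did not overlap (log2 3.99 ± 0.53, edgeR adjusted p = 0.00021). It rests on 6 UMIs in ND and 113 in MCDHFD over all 255 cells. Fpr2, a formyl peptide receptor, rose by log2 2.43 ± 0.42 and Clec4e, the glycolipid receptor Mincle, by 2.42 ± 0.37. Cd93, a surface receptor of myeloid cells, was at 42.7, 44.7 and 31.2 CPM against 145, 196 and 142 (log2 2.06 ± 0.25). Tarm1, an activating receptor of myeloid cells, rose by 3.67 ± 0.56 and rests on 5 UMIs in ND and 69 in MCDHFD over all 255 cells. Clec4d, the partner receptor of Clec4e, rose by 1.47, but the call held in 1 of 6 leave-one-out fits, so Clec4e was the only pattern recognition gene called in all 6.

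Pla2g7, which encodes the enzyme that degrades platelet-activating factor, showed little spread within MCDHFD. It was at 168, 81.3 and 70.9 CPM in ND and 565, 591 and 586 in MCDHFD (log2 2.41 ± 0.23, edgeR adjusted p = 7.65e-06). Over all 255 cells it was the gene with the smallest p (log2 2.80 ± 0.26, adjusted p = 0.00592), and the lowest MCDHFD library was at 469 CPM against at most 87.5 in ND. Thbs1, thrombospondin-1, a matrix protein, was at 17.6, 0 and 11.3 CPM against 42, 99.4 and 355 (log2 3.55 ± 0.57). It rests on few cells, with 7, 0 and 4 UMIs in ND and 26, 80 and 95 in MCDHFD. The 2 cells richest in Thbs1 held 61.5%, 65% and 65.3% of its UMIs in the MCDHFD libraries. Ear2, a ribonuclease of myeloid cells, rose by 1.72 ± 0.27, Ctdspl, a phosphatase, by 1.95 ± 0.30, Shtn1, shootin-1, by 3.26 ± 0.41 and Dpep2, a dipeptidase, by 2.89 ± 0.47. None of these 6 genes overlapped between the diets in the 217 cells, and all of them passed in each leave-one-out fit there.

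The genes that fell were led by interferon-induced genes. Of 36 tested members of the type I interferon list, 23 fell with MCDHFD and none rose, with a median log2 of -1.12, against 1.95% of all genes falling and a median of 0.01. Of the 23, 10 were called in each leave-one-out fit. The count was 12 to 23 across the leave-one-out fits, fewest without ND replicate 1, and 16 of 41 in the libraries with unfiltered lists, 14 of 36 with DESeq2 and 7 of 36 with diet alone. Over all 255 cells only Ifi205 and Ifi206 of 37 tested members fell, at a list median of -0.86.

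Ifi27l2a, a small interferon-induced gene, was at 4470, 3220 and 2900 CPM in ND and 1500, 1220 and 691 in MCDHFD. Every ND library lay above every MCDHFD library (log2 -1.67 ± 0.17, edgeR adjusted p = 1.47e-05). Over all 255 cells its log2 difference was -1.26 ± 0.23 and missed the threshold (adjusted p = 0.0686). Isg15, a ubiquitin-like modifier, was at 191, 106 and 130 CPM against 42, 41 and 37.4 (log2 -1.87 ± 0.24), again with no overlap. Bst2, tetherin, which holds budding viruses at the cell surface, fell from 244, 293 and 261 to 118, 80.8 and 78.4 CPM (log2 -1.49 ± 0.20). Irf7, the transcription factor that amplifies interferon production, fell by 1.58 ± 0.21 on the log2 scale and Oasl2, of the oligoadenylate synthetase family, by 1.57 ± 0.25.

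Members of the Ifi200 family, DNA-binding proteins encoded near each other on mouse chromosome 1, fell too. Of the 95 genes that fell, Ifi205 and Ifi206 had the largest changes. Ifi205 was at 85.4, 56.9 and 79.4 CPM in ND and 6.46, 3.73 and 0 in MCDHFD (log2 -4.18 ± 0.43). Ifi206 was at 90.4, 40.7 and 93.6 against 11.3, 2.49 and 3.74 (log2 -3.76 ± 0.42), and Ifi213 fell by 2.32 ± 0.40. The diets did not overlap for any of the 3. These genes are close copies of each other, so reads may have been split between them, and single members are less certain than the family. Ifi205 had 88 UMIs in ND and 7 in MCDHFD over all 255 cells, and Ifi206 had 106 and 12.

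Promoters of 6 falling interferon genes were read, and those of 4 are shown because they hold the letters of the site that interferon-activated factors bind. Those of Irf7 and Ifitm3 hold no match in this window and are not shown. Each line gives the 250 bases before the transcription start on the gene's strand, from RefSeq on build GRCm38.p6, in lower case, with matches to GAAA, any 2 bases and GAAA again, the core of the interferon-stimulated response element, in capitals. The search covered both strands (TTTC, any 2 bases and TTTC read on the other), and overlapping matches are merged. The regions are chr1:174031756-174032005 (Ifi205), chr1:173491319-173491568 (Ifi206), chr4:156200819-156201068 (Isg15) and chr8:71537473-71537722 (Bst2), all on the minus strand.
Ifi205: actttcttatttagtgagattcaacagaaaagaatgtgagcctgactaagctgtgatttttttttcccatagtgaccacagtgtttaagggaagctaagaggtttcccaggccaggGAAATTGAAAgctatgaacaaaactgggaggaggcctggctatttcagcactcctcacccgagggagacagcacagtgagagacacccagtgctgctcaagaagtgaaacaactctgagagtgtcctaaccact
Ifi206: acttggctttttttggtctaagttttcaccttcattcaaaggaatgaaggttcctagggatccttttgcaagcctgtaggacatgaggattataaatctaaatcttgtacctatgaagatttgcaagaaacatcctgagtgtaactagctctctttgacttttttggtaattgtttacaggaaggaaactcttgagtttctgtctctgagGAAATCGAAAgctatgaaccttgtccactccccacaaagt
Isg15: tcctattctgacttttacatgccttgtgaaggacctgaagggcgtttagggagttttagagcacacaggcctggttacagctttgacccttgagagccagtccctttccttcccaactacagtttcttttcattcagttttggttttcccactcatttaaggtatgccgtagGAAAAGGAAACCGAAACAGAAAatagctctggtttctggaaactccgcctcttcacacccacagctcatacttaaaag
Bst2: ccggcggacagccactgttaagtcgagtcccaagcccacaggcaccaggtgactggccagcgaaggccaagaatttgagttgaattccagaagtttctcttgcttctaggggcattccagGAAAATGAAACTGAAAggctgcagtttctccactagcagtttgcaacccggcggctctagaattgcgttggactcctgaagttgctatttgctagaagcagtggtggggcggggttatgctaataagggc

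Ifi205 and Ifi206 each hold 1 match, Isg15 holds 3 and Bst2 2. Of the 15 called interferon genes with a promoter sequence, 11 (73.3%) hold at least 1 match, and of the 12 tested members that were not called, 4 (33.3%) do. Members that were not called are not a set of unchanged genes. In edgeR, 33 of all 36 tested members had an unadjusted p under 0.05, and 23 were called. Among 27025 gene promoters of the same length 821 (3.04%) hold one, and among the 3936 matched genes tested in the remaining cells 136 (3.46%). None of the 8 matched members of the neutrophil granule list holds one. A match is a run of letters, and binding was not measured.

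Some interferon gamma and class I presentation genes fell as well. Of 10 tested interferon gamma and GTPase genes 4 fell and none rose, while 1.95% of all genes tested fell and 1.58% rose. Gbp2, a guanylate-binding protein, was at 55.2, 155 and 53.9 CPM in ND and 9.69, 8.7 and 3.74 in MCDHFD (log2 -3.08 ± 0.40), and Ifi47, an immunity-related GTPase, fell by 1.66 ± 0.21. Of 16 tested MHC class I presentation genes 8 fell and none rose (median log2 -0.66). Over all 255 cells 0 of 16 class I genes passed in edgeR at the same median. In the remaining cells 0 of 5 tested class II presentation genes passed in edgeR or DESeq2, with 3 at an unadjusted p under 0.05. That count cannot show unchanged class II, since the MHC class II rich cells and the 4 genes that chose them were left out. Over all 255 cells 0 of 12 tested class II genes passed in edgeR, at a median log2 of -0.83. H2-K1, a classical class I heavy chain, was at 929, 809 and 709 CPM against 452, 421 and 474 (log2 -0.86 ± 0.14, edgeR adjusted p = 0.00166). B2m, the shared light chain, was at 2150, 1510 and 2030 against 1340, 1300 and 941, and H2-T23, a non-classical heavy chain, fell by 0.97 ± 0.16. For all 3 the diets did not overlap. The class I count was 3 to 8 across leave-one-out fits, 4 of 16 with DESeq2 and 0 of 16 with diet alone in edgeR, and H2 heavy chains share sequence, which limits the values of single ones.

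At the level of cells, those with at least 2 UMIs of Isg15, Ifit1, Ifit2, Ifit3, Rsad2, Irf7 and Ifi27l2a after thinning to 1000 UMIs made up 70.6%, 82.8% and 69.4% of the gate in ND. They were 42.9%, 32.1% and 11.1% in MCDHFD. The lowest ND library lay above the highest MCDHFD library (means 74.3% ± 7.38 and 28.7% ± 16.2, SD, n = 3 each; exact permutation p = 0.1, the smallest possible, and 0.25 adjusted over 5 states). Without thinning the means were 97.8% and 84.3%, also without overlap. Ifi27l2a in the thinned cells was found in 77.8% to 82.8% of ND cells and 37% to 62.5% of MCDHFD cells, against 32.4% to 41.2% and 13.8% to 16.5% of B cells.

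**Figure D3:**
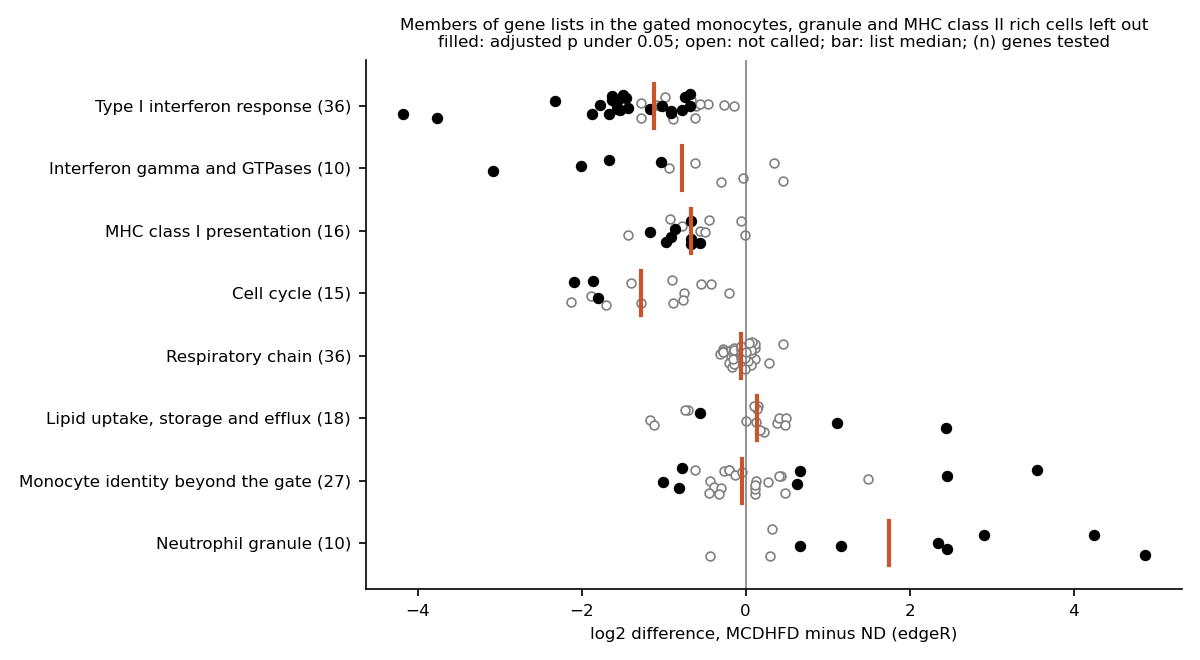
Log2 difference between MCDHFD and ND (edgeR, list form and diet) of each tested member of 8 gene lists in the 217 remaining cells. Filled points passed at adjusted p under 0.05, open points did not, and the bar is the list median, which is -1.12 for the type I interferon list and 1.76 for the neutrophil granule list. With no filter on low counts these medians were -1.33 and 0.52.

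Genes of monocyte identity did not move as a block. Of 27 tested genes of that list outside the rule, 4 rose (Chil3, Thbs1, Hp and Gsr) and 3 fell, with a median of -0.04. The 3 were Plac8, an abundant gene of myeloid and lymphoid cells at 4600, 3270 and 4070 CPM in ND and 2420, 2830 and 1610 in MCDHFD (log2 -0.81 ± 0.12), Ms4a4c, a membrane protein (-1.01 ± 0.15), and Ifitm3 (-0.77 ± 0.12). Chil3 is also in the granule list and Ifitm3 in the interferon list. Over all genes tested, 1.58% rose and 1.95% fell. Of 13 tested genes of the transition to non-classical monocytes, 2 rose (Ear2 and Fcgr4) and 2 fell. Cx3cr1, the fractalkine receptor, fell by 1.03 ± 0.24 and Tppp3, a tubulin-binding protein, by 1.28 ± 0.21, while Nr4a1, the factor required for non-classical monocytes, was at log2 0.77 ± 0.25 and did not pass (edgeR adjusted p = 0.11).

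Among lipid uptake and storage genes, 2 of 18 rose and 1 fell, against 1.58% and 1.95% of all genes tested, with a median log2 of 0.14. DESeq2 called 1 higher and none lower, and edgeR with diet alone called none. Plin2, the coat protein of lipid droplets, was at 116, 171 and 156 CPM in ND and 300, 316 and 332 in MCDHFD, with no overlap (log2 1.12 ± 0.18, edgeR adjusted p = 0.00127), and was called in each leave-one-out fit. Dgat2, an enzyme of triglyceride synthesis, rose by 2.44 ± 0.56, with ND libraries at 0 to 17 CPM, a call that held in 1 of 6 leave-one-out fits. Npc2, a lysosomal cholesterol carrier, fell by 0.56 ± 0.13 and held in 3 of 6 fits. No member passed in edgeR or DESeq2 among 9 tested genes of fatty acid oxidation, 7 of methionine, folate and choline metabolism, and 36 of the respiratory chain, with 0 of each at an unadjusted p under 0.05. Among 18 genes of glycolysis none passed in either tool and 4 had an unadjusted p under 0.05.

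Genes known to respond to glucocorticoids included Fkbp5, a co-chaperone of the receptor, at 45.2, 20.3 and 19.9 CPM in ND and 155, 281 and 89.6 in MCDHFD. The diets did not overlap (log2 2.62 ± 0.33, edgeR adjusted p = 0.000157), and over all 255 cells it missed the threshold (log2 2.11, adjusted p = 0.07). Ddit4, an inhibitor of growth signalling, rose by 2.58 ± 0.43 and Txnip, a thioredoxin inhibitor, fell by 1.22 ± 0.21. The other 13 of 16 tested members of that list did not pass. Of 10 tested heat shock genes 1 rose and 2 fell, against 1.58% and 1.95% of all genes tested. The list median was log2 -0.32, and no member was called in every leave-one-out fit. Hspa5, a chaperone of the endoplasmic reticulum also known as BiP, rose by 1.00 ± 0.19 with overlapping diets and held in 4 of 6 fits, and the cytosolic chaperones Hsp90ab1 and Hspa8 fell by 0.65 ± 0.14 and 0.49 ± 0.13. Hyou1, another chaperone of the endoplasmic reticulum and not in that list, rose by 2.77 ± 0.50 and held in 5 of 6 fits, but over all 255 cells it was at log2 0.91 (edgeR adjusted p = 0.607).

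Of 15 tested cell cycle genes 3 fell, Cks2, Hist1h2ap and Hist1h1b, against 1.95% of all genes tested. In edgeR 12 of the 15 had an unadjusted p under 0.05, and the list median was log2 -1.28. None of the 3 was called in every leave-one-out fit. The summed level of the list over all gated cells followed single libraries, at 8520, 7170 and 2730 CPM in ND and 4050, 3820 and 1690 in MCDHFD. Of the 17 tested genes for inflammatory cytokines and NF-kB, Il1b, interleukin-1 beta, rose by 1.84 ± 0.45 and Il15 fell by 1.41 ± 0.30. MCDHFD replicate 3, at 247 CPM of Il1b, led that rise, against 42 and 37.3 in MCDHFD replicates 1 and 2. The call held in 1 of 6 leave-one-out fits.

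The diet difference in the gate was then set against that in 3 other myeloid classes of the same libraries, in one edgeR model with library as a block, over all 255 gated cells. Against Treml4-positive non-classical monocytes, 13 of 6707 genes differed in their change (0.194%), 11 with a greater log2 change in the gate. Against neutrophils 37 of 8172 did (0.453%), and against Vcam1-positive red pulp macrophages 0 of 8309 did (0%), with 379 at an unadjusted p under 0.05. The genes that chose a class were not tested against it.

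Chil3 was higher with MCDHFD in the gate and lower in neutrophils. Neutrophils held it at 2370, 2820 and 3460 CPM in ND and 526, 328 and 1160 in MCDHFD, with no overlap, and the difference of the changes was log2 5.38 ± 0.41 (edgeR adjusted p = 7.04e-05). Lcn2 in neutrophils was at 9320, 9480 and 7920 CPM against 4780, 2920 and 7500, also lower in every MCDHFD library (difference of changes 4.63 ± 0.52), as was Thbs1 (6.85 ± 0.61). Mmp8 (3.49 ± 0.34) and Fpr2 (3.11 ± 0.41) overlapped between the diets in neutrophils. Chil3, Lcn2, Thbs1, Mmp8 and Fpr2 were called in each leave-one-out fit. In non-classical monocytes Chil3 was at 228, 241 and 97.8 CPM in ND and 543, 854 and 2470 in MCDHFD, higher in every MCDHFD library, and the difference from the gate was 0.46 ± 0.36 and was not called (edgeR adjusted p = 0.94).

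Lcn2 and S100a8 differed in their change between the gate and non-classical monocytes, by log2 4.51 ± 0.50 and 3.65 ± 0.44 (edgeR adjusted p = 0.000131 and 0.000219). S100a8 in the non-classical class was at 7790, 3330 and 1310 CPM in ND and 2820, 2770 and 2730 in MCDHFD. That class also held Retnlg at 542, 132 and 35.2 CPM in ND and 389, 236 and 256 in MCDHFD, and ND replicate 1 was highest for both genes. The part of this neutrophil RNA in the difference was not tested. Without the term for list form the adjusted p was 0.205 for Lcn2 and 0.327 for S100a8.

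Interferon genes were tested for a different change in the same way. No member of the type I interferon list differed in its change between the gate and non-classical monocytes (0 of 40 in edgeR, 4 at an unadjusted p under 0.05, median 0.11) or red pulp macrophages (0 of 42, 6 unadjusted, median -0.38), and 1 of 43 did against neutrophils. Ifi27l2a was at 1820, 2760 and 2370 CPM in ND non-classical monocytes and 893, 572 and 306 in MCDHFD, and in B cells at 607, 790 and 565 against 235, 221 and 142. In red pulp macrophages it was at 333, 948 and 451 CPM in ND and 155, 250 and 230 in MCDHFD, also without overlap. The difference of its changes between the gate and non-classical monocytes was log2 0.82 ± 0.28 and did not pass (edgeR adjusted p = 0.639). A difference that was not called does not show equal change.

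**Figure D4:**
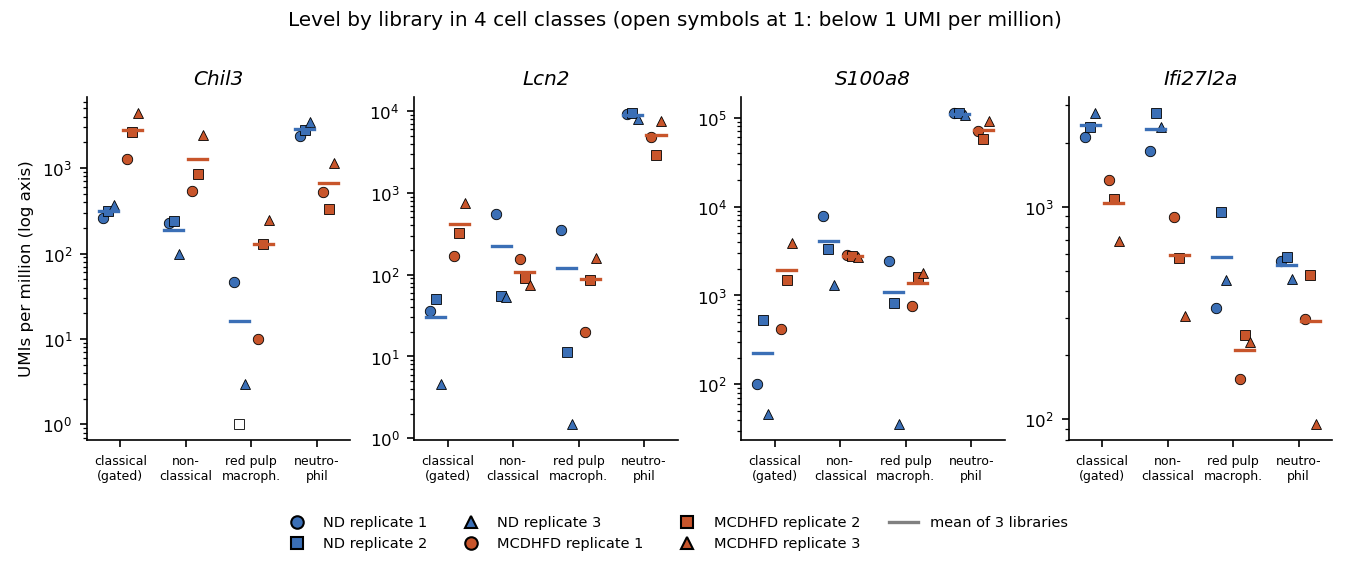
Levels of Chil3, Lcn2, S100a8 and Ifi27l2a by library in the gated classical monocytes and 3 other myeloid classes, in CPM on log axes, with bars at the mean of 3 libraries. Chil3 is higher with MCDHFD in classical and non-classical monocytes and lower in neutrophils. Ifi27l2a is lower in every MCDHFD library than in every ND library of the classical, non-classical and red pulp macrophage classes, and overlaps in neutrophils.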

How the data were processed

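The deposited files are raw UMI counts per gene and barcode from droplet single-cell RNA-seq of whole splenocytes (10x 3' v3.1 chemistry per the labels' protocols). The submitters' processing notes name Cell Ranger 9.1.0, Seurat 4.3.0 and mm10, while the file headers give Cell Ranger 9.0.1 or 7.2.0. Of the 6 barcode lists, 2 were deposited filtered and 4 unfiltered.

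Cells were kept and gated on the raw counts as stated in the report, with Python 3.11.15 and scanpy 1.11.5, whose Scrublet gave the doublet predictions. Counts were summed per library and tested with edgeR 4.0.16 (quasi-likelihood, TMM, filterByExpr with a minimum count of 10, Benjamini-Hochberg adjustment) in R 4.3.3, with list form and diet as terms and the 13 genes of the rule left out. DESeq2 1.42.0 was an alternative. Diet changes were compared between classes in 1 model with library as a block. Shares were tested with exact permutation tests over libraries.

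Named genes were, in each direction, up to 12 by fold out of the called genes whose mean log2 CPM reached 5 and whose libraries did not overlap between diets (threshold adjusted p 0.05), plus up to 4 members of each described list by smallest p. Further genes named from the remaining cells were chosen after their values were seen. The members and the 46 gene lists, of which 7 symbols had no match, were chosen with earlier results of these data known. On simulated data for the fit over all gated cells (6219 genes), 17.6% of changes of log2 1 and 86.7% of log2 2 were recovered, and 0.0994% of unchanged genes were called. Promoters are from RefSeq on GRCm38.p6. Some genes that the naming rule picks are not reported here.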

Additional observations from a re-analysis of the deposited data

Results flagged for a closer look

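In 10 cases a gene's diet change in the gated monocytes differed from that in another class by a test of the difference itself (edgeR, adjusted p under 0.05). Against non-classical monocytes the log2 differences of change were 4.51 for Lcn2, 3.65 for S100a8, 5.11 for Wfdc21, 4.39 for Pparg and 2.33 for S100a9. Lcn2 and S100a8 were called in 6 of 6 leave-one-out fits, Wfdc21 in 5, and Pparg and S100a9 in 3. The fits without ND replicate 2 and without MCDHFD replicate 3 rest on the same 4 unfiltered libraries for these differences. Without the list form term only Wfdc21 of the 5 passed (edgeR adjusted p = 0.037), with S100a9 at 1. Against neutrophils the log2 differences were 5.38 for Chil3, 6.85 for Thbs1, 3.49 for Mmp8, 4.63 for Lcn2 and 3.11 for Fpr2, and all 5 passed in each leave-one-out fit and without the list form term. Groups of 3 libraries were too small for a test of outlying samples.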

How the results depend on the processing

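Over all gated cells the 18 diet genes became 8 with diet alone, 0 with unfiltered lists alone (347 at an unadjusted p under 0.05; DESeq2 on all 6 libraries called 50), 337 with no filter on low counts, 9 with MCDHFD replicates 1 and 2 summed, 43 with cells thinned to 2000 UMIs, 212 without granule cells and 172 without both kinds, and 0 to 1078 when 1 library was left out. In the remaining cells 172 became 27 with diet alone, 72 with unfiltered lists alone, 82 with DESeq2, 336 with no filter, 112 with those replicates summed and 63 to 258 when 1 library was left out, and every gene of the 172 that was tested kept its direction. Same-numbered libraries correlated at 0.374, -0.233 and 0.084, and the other pairs across diets at -0.417 to 0.314. With 3 libraries per diet, these values cannot settle whether the numbers pair the samples. A fit with the replicate block called 59 genes over all gated cells and 26 in the remaining cells.

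Differences from non-classical monocytes numbered 1 without the list form term, 41 with no filter, 5 with predicted doublets removed and 4 to 457 when 1 library was left out. For red pulp macrophages these were 2 without the term, 28 with no filter and 0 to 108, and for neutrophils 213 with no filter and 15 to 67. Several log2 diet differences, none past a test, changed sign: the gated share was -0.01 with Cd79a at 0 and -0.02 to 0.12 when 1 library was left out, the ratio to non-classical cells 0.04 when thinned to 2000 UMIs, the granule share 0.05 when not thinned, the transition share -0.92 to 0.65 and the neutrophil share -0.31 to 0.30 when 1 library was left out, with reversals at -0.30, -0.10 and -0.92 for transition and 0.30 and 0.23 for neutrophils. The cause of these moves was not tested. Of 421 values of single named genes under alternatives, 299 kept their side of the threshold, 82 lost it, 40 gained it and 0 reversed. With 27 to 56 cells per library, small changes of low genes were not detectable. The fits on the remaining cells and all their alternatives, those without granule or MHC class II rich cells, and the sum over cells thinned to 2000 UMIs were chosen after seeing the data.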
